A study of Mus musculus with 4 samples.

Results

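The genes described here are the hnRNP and SR splicing factors of tumor-associated macrophages (TAMs). They were taken by symbol from the GENCODE M21 annotation of the mouse genome: every protein-coding gene whose symbol starts with Hnrnp or with Srsf and a digit, together with Matr3, Tra2a and Tra2b. This gave 34 genes of the 54146 in the count table, 21 of them hnRNP genes (Matr3 included) and 13 SR genes (Tra2a and Tra2b included). The symbol alone decides which genes belong, but the family was selected on its log2 fold changes between propranolol and control and its GC content in earlier results of these data. Both are therefore given as a description and support no test.

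TAMs were sorted from subcutaneous MCA205 tumors, a transplanted murine fibrosarcoma, grown in female mice of 8 to 16 weeks of age. Mice of the propranolol group drank water with propranolol hydrochloride, a nonselective blocker of beta-adrenergic receptors, at 0.5 g/L from the day the cancer cells were inoculated, and control mice were given vehicle. Leukocytes were first enriched on CD45 beads, and live CD11b+ F4/80+ cells were then sorted and sequenced as polyadenylated RNA. There were 2 control and 2 propranolol libraries, and the question was whether TAMs of treated mice express other genes than those of control mice. The study describes the 2 libraries of a group as biological replicates, and the labels do not say whether each came from a single mouse or a pool. The 4 libraries held 13798249 and 23018142 counts in the control group and 39818103 and 16424081 in the propranolol group. Every tested splicing factor had at least 366 counts in each library.

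hnRNP proteins bind nascent transcripts and often keep the splicing machinery away from the exons they cover, while SR proteins bind exonic enhancers through RNA recognition motifs and recruit the machinery through a tail rich in arginine and serine. Many genes of both families limit their own expression by splicing in a poison exon or retaining an intron, which sends the transcript to nonsense-mediated decay or keeps it in the nucleus. In macrophages, splicing factors of both families are known to shape the transcripts of the inflammatory response. Of the 34 genes, 27 have an annotated transcript that is a decay target or retains an intron. The table holds 1 count per gene and library, so these forms are merged with the coding ones.

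The macrophage identity of the cells was checked first. Adgre1, which encodes F4/80, was at 975.3 and 1008 CPM (counts scaled to a fixed library total) in control TAMs and 1151 and 1100.0 under propranolol. Itgam, which encodes CD11b, was at 359 and 352 CPM in control TAMs and 369 and 313 CPM under propranolol. All 14 macrophage markers passed the filter on low counts and none was at 0. Both sort markers were thus well expressed in all 4 libraries.

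The coding ends of 5 genes named in the results are shown as examples of base composition. These are Hnrnph1, the member with the lowest transcript GC content, Srsf3 and Srsf7, which are close relatives with like GC content and opposite fold changes, Srsf9, the only member called higher, and Hnrnpa0, the member with the highest GC content. Each is the last 120 bases of the coding sequence up to and including the stop codon, read 5′ to 3′ on the coding strand from GENCODE M21 on GRCm38, with G and C in capitals.
Hnrnph1: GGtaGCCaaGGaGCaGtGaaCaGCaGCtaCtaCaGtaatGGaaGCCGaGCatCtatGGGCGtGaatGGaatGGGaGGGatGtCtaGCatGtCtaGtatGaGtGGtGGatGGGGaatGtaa
Srsf3: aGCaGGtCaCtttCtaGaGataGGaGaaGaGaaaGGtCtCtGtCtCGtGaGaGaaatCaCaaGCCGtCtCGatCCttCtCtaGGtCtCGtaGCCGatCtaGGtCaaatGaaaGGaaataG
Srsf7: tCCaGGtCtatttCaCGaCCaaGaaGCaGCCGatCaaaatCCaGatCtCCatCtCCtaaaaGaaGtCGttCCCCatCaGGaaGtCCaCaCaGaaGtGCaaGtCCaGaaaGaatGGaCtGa
Srsf9: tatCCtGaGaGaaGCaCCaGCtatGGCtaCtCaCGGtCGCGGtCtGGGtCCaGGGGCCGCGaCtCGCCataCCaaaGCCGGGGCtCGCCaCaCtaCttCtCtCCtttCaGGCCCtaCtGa
Hnrnpa0: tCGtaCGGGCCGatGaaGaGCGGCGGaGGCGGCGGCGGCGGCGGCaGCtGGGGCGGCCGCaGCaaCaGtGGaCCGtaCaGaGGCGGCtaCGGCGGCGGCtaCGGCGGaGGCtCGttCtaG

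The Hnrnph1 stretch spans chr11:50384736-50385895 (plus strand) and joins 2 exons. That of Srsf3 spans chr17:29040809-29041411 (plus strand) and that of Srsf7 chr17:80201548-80202719 (minus strand), each over 3 exons. The Srsf9 stretch lies within the last exon at chr5:115332600-115332719 (plus strand), and the Hnrnpa0 stretch within the single exon of that gene at chr13:58127396-58127515 (minus strand). G and C made up 60 of the 120 bases in the Hnrnph1 stretch, 45.8% of that of Srsf3, 46.7% of that of Srsf7, 60.8% of that of Srsf9 and 74.2% of that of Hnrnpa0. Srsf3 and Srsf7 thus had nearly the same base composition in this part of their coding sequence, and Hnrnpa0 stood far above the other 4 genes. Hnrnph1, the lowest in transcript GC content, lay above Srsf3 and Srsf7 in this part. The GC groups and the GC correction further on use whole transcripts or all exons, not these stretches.

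Levels between genes were compared in TPM, for which counts are divided by the exon length of a gene before they are scaled to a fixed total. The most abundant hnRNP gene in control TAMs was Hnrnpa0, which binds AU-rich elements of cytokine transcripts, at 559 and 487 TPM in control TAMs and 436 and 456 TPM under propranolol. Hnrnpab followed at 497 and 481 TPM in control TAMs and 404 and 311 TPM under propranolol. The control values of these 2 genes overlapped between libraries, but within every library Hnrnpa0 was the higher of the pair. Hnrnpa2b1, a reader of modified bases and sorting motifs in RNA, was next at 373 and 354 TPM in control TAMs and 217 and 176 TPM under propranolol. Its control values lay below both of the former and above those of Hnrnpa1, at 341 and 337 TPM.

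Among the SR genes, Srsf2, which recruits the machinery to exonic enhancers, was the most abundant at 226 and 259 TPM in control TAMs and 225 and 247 TPM under propranolol. Srsf5 was at 207 and 218 TPM in control TAMs and 151 and 155 TPM under propranolol. Srsf9, a close relative of Srsf1, was at 207 and 178 TPM in control TAMs and 254 and 276 TPM under propranolol. In control TAMs both values of Srsf2 lay above those of Srsf5 and Srsf9, which overlapped each other. Under propranolol Srsf9 lay above Srsf2 and Srsf2 above Srsf5. The lowest tested member was Hnrnpr, with a mean of 13.2 ± 0.256 TPM in control TAMs (SD, n = 2) and values of 7.49 and 6.96 TPM under propranolol. Srsf12, which was not tested, had 1 count in propranolol library 1 and 0 in the other libraries, and a count of 0 allows up to 3 counts in a library.

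**Figure D1:**
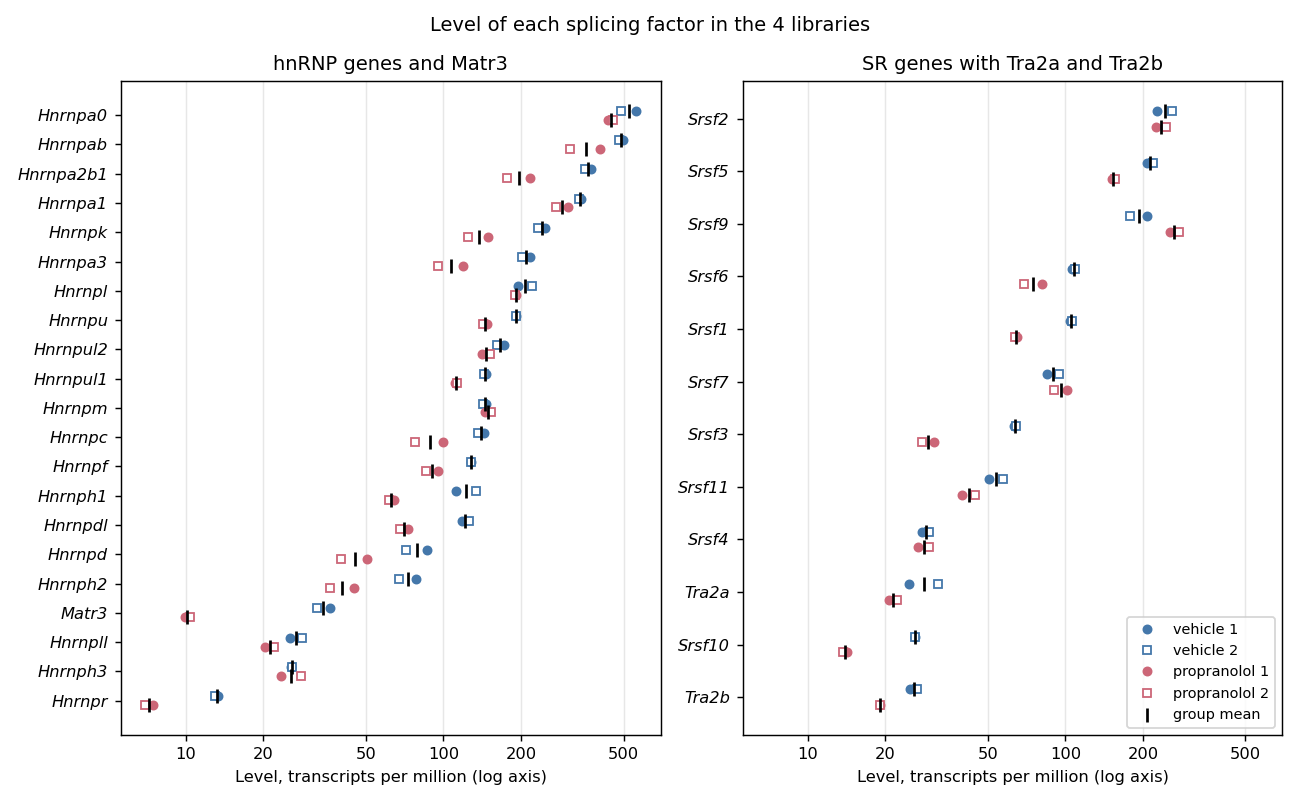
Level of each of the 33 tested splicing factors in TPM (log axis) in the 2 control (blue) and 2 propranolol (red) libraries, with filled circles for replicate 1, open squares for replicate 2 and black bars for group means. The levels run from Hnrnpr at a mean of 13.2 TPM in the control libraries to Hnrnpa0 at 559 and 487 TPM, and Srsf9 is to the right in both propranolol libraries while Matr3 and Srsf3 are far to the left.

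The groups were then compared gene by gene. To be called, a gene had to differ by more than 1.5-fold with an adjusted p under 0.05 in edgeR's quasi-likelihood test over all 14688 genes tested. Of the 33 tested splicing factors, 8 were called lower in propranolol TAMs, 1 was called higher and 24 were not called. Over all genes tested, 27.8% were called, 15.6% lower and 12.2% higher. The median log2 fold change was -0.21 over the splicing factors and -0.02 over all genes, and 23 of the 33 were below 0, as were 51.0% of all genes. Since the genes were chosen with this contrast in view, nothing is read from these counts. With the GC correction described further on, 7 members were called higher and 0 lower, so none of the 8 lower calls was kept. With no filter on low counts the test called 5 members, and 4466 of the 28343 genes then tested. Without propranolol library 2 the median log2 fold change was -0.13 over the splicing factors and -0.04 over all genes. Scaling by library totals without TMM factors moved the median of all genes to -0.25 and that of the splicing factors to -0.44. With that scaling 0 members were called higher and 13 lower, and of all genes 609 were called higher and 3497 lower, against 1798 and 2286 with TMM factors. The split of all calls was 1417 higher and 2533 lower with upper-quartile factors.

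Matr3, which encodes the nuclear matrix protein matrin 3, a binder of pyrimidine-rich introns, had the lowest fold change of the family. It was at 112 and 97.3 CPM in control TAMs and 36.4 and 36.6 CPM under propranolol. Both propranolol libraries lay at nearly the same low level and far below both control libraries, with a log2 fold change of -1.52 ± 0.12 (SE, 2 libraries a group), which is 2.87-fold lower. It was the only member more than 1.5 log2 units down. Its exons share 1754 bases with an overlapping gene model on the same strand, Gm28285, which is not among the genes of the count table. Reads from the stretch that the models share cannot be told apart.

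Srsf3, the smallest SR protein, which couples splicing to nuclear export, came next at 153 and 151 CPM in control TAMs and 88.2 and 76.3 CPM under propranolol. The groups did not overlap, and the log2 fold change was -0.88 ± 0.11 (SE). Hnrnph1, a binder of G-rich runs, was at 199 and 232 CPM in control TAMs and 136 and 125 CPM under propranolol, a log2 fold change of -0.73 ± 0.11 (SE). Its 2 control libraries differed from each other by more than its 2 propranolol libraries did. Hnrnpa3, a relative of Hnrnpa1, was at 356 and 324 CPM in control TAMs and 232 and 179 CPM under propranolol, with a log2 fold change of -0.72 ± 0.13 (SE). Srsf10, an SR protein that represses splicing when it loses its phosphates, was at 55.6 and 54.5 CPM in control TAMs and 36.2 and 33.5 CPM under propranolol, a log2 fold change of -0.66 ± 0.12 (SE). In each of these 4 genes the 2 propranolol libraries lay below both control libraries.

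The other 3 called members were Hnrnpa2b1 at -0.64 ± 0.12, Hnrnpr at -0.62 ± 0.11 and Hnrnph2 at -0.60 ± 0.14 on the log2 scale (SE). In this order they were at -0.53, -0.53 and -0.41 without control library 1, and -0.44, -0.52 and -0.40 without propranolol library 2. All of these are under 1.5-fold, and without either of the other libraries they lay further below 0. Without propranolol library 2, Hnrnpa3 and Srsf10 were also under 1.5-fold, at -0.52 and -0.57. Just outside the 1.5-fold threshold lay Hnrnpk at -0.57, Hnrnpd at -0.56 and Hnrnpdl at -0.55, so the line between called and not called ran through a dense run of members. With no fold threshold 16 members were called, 3 higher and 13 lower, where 42.2% of all genes were. Hnrnpa2b1 had 750.0 and 692 CPM in control TAMs and 519 and 403 CPM under propranolol, and propranolol library 2 was the lower of the pair. Of the 8 members called lower, 6 were hnRNP genes and 2 SR genes.

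Srsf9, which regulates alternative splice sites together with Srsf1, was the only member called higher. It was at 105 and 87.3 CPM in control TAMs and 152 and 159 CPM under propranolol, a log2 fold change of 0.70 ± 0.11 (SE) or 1.62-fold, and of 0.46 with library totals in place of TMM factors. Srsf7, which shares RNA targets and an export role with Srsf3, was at 91.7 and 99.5 CPM in control TAMs and 131 and 112 CPM under propranolol, with a log2 fold change of 0.35 ± 0.11 (SE). Both genes had both propranolol libraries above both control libraries. Hnrnpm was at 357 and 336 CPM in control TAMs and 420 and 423 CPM under propranolol, a log2 fold change of 0.28 ± 0.09 (SE). Its exons share 1169 bases with March2 on the same strand. Hnrnph3, the least abundant H-type hnRNP, was at 24.7 and 24.2 CPM in control TAMs and 26.8 and 30.7 CPM under propranolol, a log2 fold change of 0.23 ± 0.13 (SE). Srsf4 was at 30.2 and 31.3 CPM in control TAMs and 34.6 and 36.7 CPM under propranolol, a log2 fold change of 0.21 ± 0.12 (SE). The differences of Srsf7, Hnrnpm, Hnrnph3 and Srsf4 were all under 1.5-fold, and with library totals in place of TMM factors the log2 fold changes were 0.11, 0.05, 0.00 and -0.02.

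Over the 33 genes, the groups did not overlap in 27, with 20 lower and 7 higher under propranolol. In all genes tested 72.6% did not overlap, 36.9% lower and 35.8% higher. Replicates of a gene differed by a median of 0.11 log2 units in control TAMs and 0.12 in the propranolol pair, and the size of the log2 fold change had a median of 0.28. Hnrnpa0 was at 457 and 387 CPM in control TAMs and 424 and 425 CPM under propranolol, so the propranolol values lay between the control values. The log2 fold change of Hnrnpa1 was 0.01, with CPM of 329 and 315 in control TAMs and 348 and 299 under propranolol. On the log2 scale the 2 propranolol libraries differed most in Hnrnpab, at 408 and 301 CPM, with the lower value below both control libraries and the higher value between them.

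**Figure D2:**
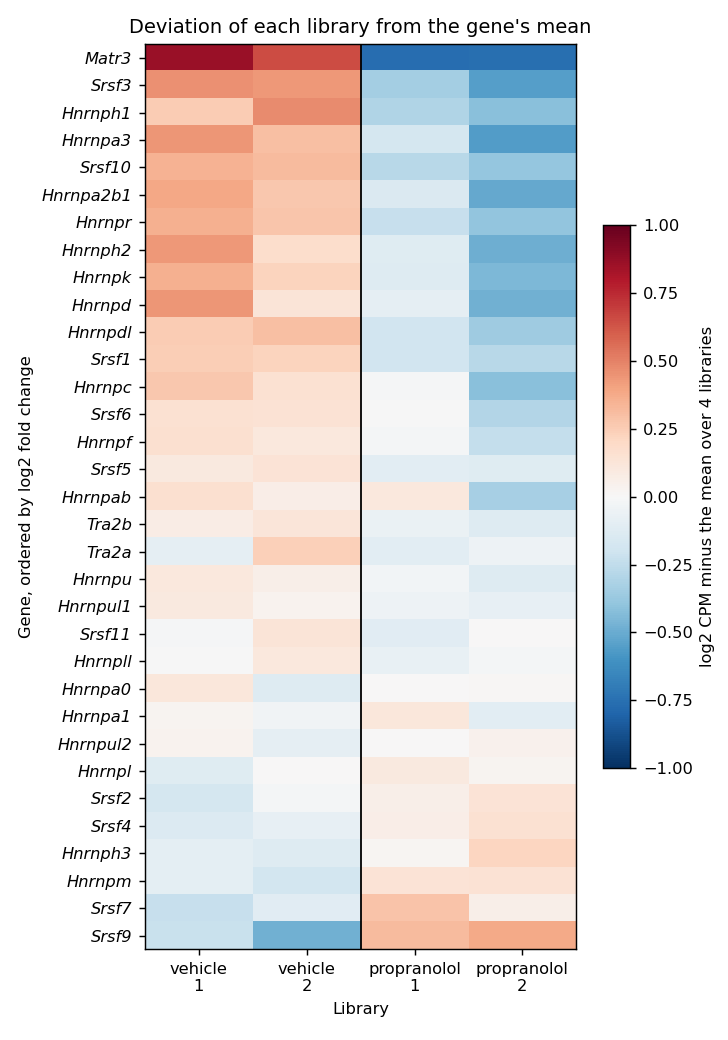
Deviation of each library from the mean log2 CPM of a gene over the 4 libraries, with genes ordered by log2 fold change and red for above and blue for below the mean. Genes from Matr3 down to Srsf5 are red in both control libraries and below the mean or near it under propranolol, and Srsf9, Srsf7 and Hnrnpm at the bottom show the opposite.

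As a whole the family, which was selected on this contrast, took a smaller share of the reads in propranolol TAMs. The 34 genes held 0.832% and 0.810% of all counts in control TAMs and 0.621% and 0.575% under propranolol. Their summed level was 5005 and 4914 TPM in control TAMs and 3885 and 3679 TPM under propranolol. After TMM scaling the sums were 7737 and 7431 CPM in control TAMs and 6798 and 6188 CPM under propranolol, so the direction was kept and the gap narrowed. The hnRNP genes went from 6254 and 5904 CPM to 5383 and 4811 CPM, and the SR genes from 1483 and 1527 CPM to 1415 and 1377 CPM. These sums are not corrected for GC content, and with that correction the family's median log2 fold change turned from -0.21 to 0.15. In sorted bulk RNA, fewer cells of a type and less RNA per cell cannot be told apart.

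Related members were set side by side within libraries, since the scaling cancels in such a ratio. The 8 pairs were chosen after the values were seen. The ratio of Srsf7 to Srsf3 in CPM was 0.599 and 0.660 in control TAMs and 1.49 and 1.47 under propranolol. Srsf3 thus had more counts than Srsf7 in both control libraries and fewer in both propranolol libraries. In TPM, which allows for exon length, Srsf7 was the higher of the pair in every library. Srsf7 was at 84.5 and 94.4 TPM in control TAMs and 102 and 90.7 TPM under propranolol. Srsf3 was at 63.4 and 64.2 TPM in control TAMs and 30.8 and 27.7 TPM under propranolol. The longest transcripts of the pair have 41.6% GC (Srsf7) and 40.9% GC (Srsf3), as alike as their coding ends shown above. The ratio of Srsf9 to Srsf1, another pair of close relatives, was 0.576 and 0.487 in control TAMs and 1.13 and 1.25 under propranolol, but the GC content of this pair differs, at 48.9% and 40.6%. Hnrnpa2b1 to Hnrnpa1, which have 43.6% and 44.1% GC in the longest transcript but 39.6% and 44.1% over all exons, went from 2.28 and 2.20 in control TAMs to 1.49 and 1.35 under propranolol.

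Without the GC correction, the ratios of the other pairs moved less. That of Tra2a to Tra2b was 0.740 and 0.904 in control TAMs and 0.810 and 0.880 under propranolol, and that of Hnrnpdl to Hnrnpd was 0.891 and 1.14 in control TAMs and 0.945 and 1.10 under propranolol. In both pairs, and in Hnrnph1 to Hnrnph2, the groups overlapped. In 5 of the 8 pairs they did not, a count from which nothing is read, since no share over other gene pairs is given. The remaining 2 of these were Hnrnpl to Hnrnpll, at 3.93 and 3.98 in control TAMs and 4.81 and 4.41 under propranolol, and Hnrnpul1 to Hnrnpul2, at 1.04 and 1.09 in control TAMs and 0.956 and 0.910 under propranolol. The GC content of Hnrnpl (54.2%) is 13.5 points above that of Hnrnpll (40.7%), and the difference between the groups in the log2 ratio of this pair turned from 0.22 to -0.83 with the GC correction. With the correction it was -0.49 for Tra2a to Tra2b, -0.48 for Hnrnpul1 to Hnrnpul2, -0.40 for Hnrnpdl to Hnrnpd and 0.35 for Hnrnph1 to Hnrnph2, against 0.45 for Srsf9 to Srsf1, -0.61 for Hnrnpa2b1 to Hnrnpa1 and 1.16 for Srsf7 to Srsf3. With the GC content of all exons and of the coding transcript, the difference was 1.27 and 1.23 for Srsf7 to Srsf3, 0.07 and 0.95 for Srsf9 to Srsf1, -0.15 and -0.63 for Hnrnpa2b1 to Hnrnpa1, and 0.32 and -0.40 for Hnrnph1 to Hnrnph2. Of these 4 pairs, Srsf7 to Srsf3 moved least with the GC measure. In the other 4 pairs the difference was below 0 with each of the 3 measures. Among them Hnrnpdl to Hnrnpd moved about as little as Srsf7 to Srsf3, at -0.50 with all exons and -0.41 with the coding transcript.

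Fold changes in these libraries rose with the GC content of a gene, and the splicing factors are AT-rich. The longest transcript of the tested members had a median GC content of 42.9%, against 49.6% over all genes tested, and 27 of 33 members lay below the latter. The gap was smaller in the coding sequence, with a median of 50.1% for members and 53.1% for all genes, than in the 3′ UTR, with 35.9% and 44.9%. The lowest transcript GC contents were those of Hnrnph1 (37.1%) and Matr3 (38.6%), and the highest those of Hnrnpa0 (55.4%) and Hnrnpl (54.2%). Of 10 groups of genes of nearly equal size ordered by GC content, the lowest 3 held 11, 7 and 4 members. All 8 members called lower were among these 22. Of all genes in these 3 groups, 60.2%, 36.1% and 18.3% were called lower, so nothing particular to the members is read from this count.

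In the lowest GC group, which held 11 members, the median log2 fold change of all its genes was -0.94 and 60.2% were called lower. Per library, those genes deviated from their mean by a median of 0.49 and 0.44 log2 units in control TAMs and -0.37 and -0.51 under propranolol. Each pair of libraries of a group thus stood together, and the trend with GC content cannot be told apart from the treatment. Across the 33 members, Spearman's rho between log2 fold change and transcript GC content was 0.613, as a description over genes that share the same 4 libraries, and over 14681 genes it was 0.577. Within the family, rho was 0.615 with the GC content of the coding sequence and 0.171 with that of the 3′ UTR, and over all genes with these annotations it was 0.524 and 0.501.

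**Figure D3:**
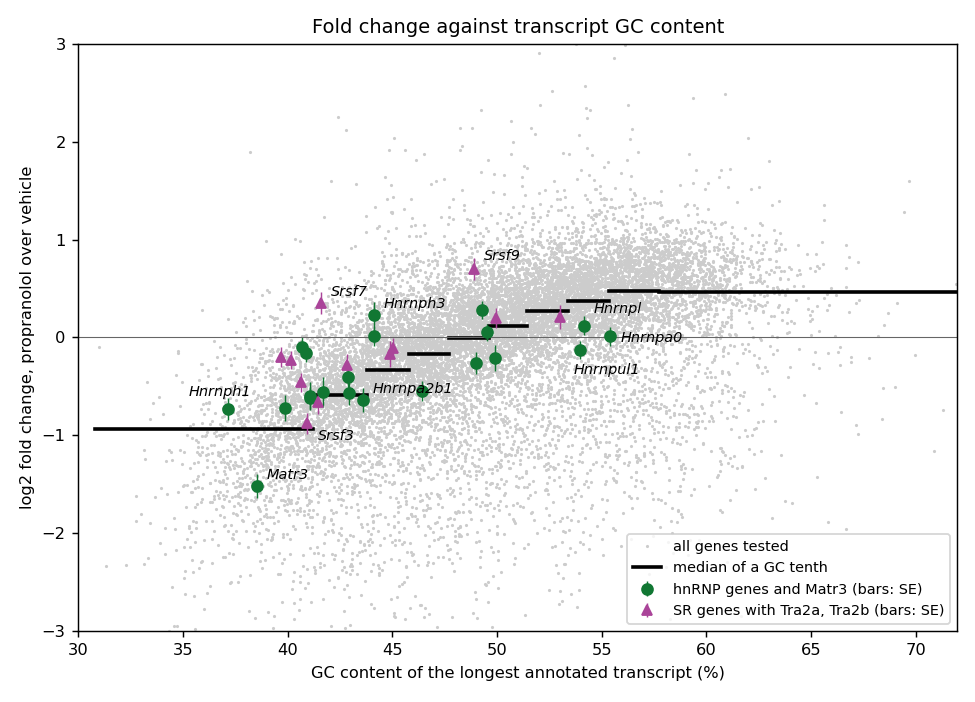
Log2 fold change (propranolol over control) against GC content of the longest annotated transcript (%), with all genes tested in grey (95 lie outside the axes), the median of each of the 10 GC groups as a black line, and hnRNP genes (green circles) and SR genes (purple triangles) with SE bars. Matr3 lies below the line of the lowest group at -1.52, Srsf7 lies far above the lines at a GC content of 41.6%, and most AT-rich members are negative but above their line.

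Members were also set against genes of like GC content. The log2 fold change of 23 members was above the median of their own GC group and that of 10 was below, with a median gap of 0.17. Srsf7 lay 0.93 above its group, Hnrnpll 0.84, Hnrnpu 0.78 and Tra2b 0.75. Matr3 lay 0.58 log2 units below its group (a gap of -0.58), Hnrnpul1 had a gap of -0.50 and Hnrnpa0 one of -0.46. Srsf3, the member with the second lowest fold change, had a gap of 0.06.

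The same test was run once the smooth dependence of each library on GC content had been taken out. This left 7 members called higher and 0 lower, where 12.6% of all genes were called, 7.64% higher and 4.99% lower. The 7 were Srsf7 at 1.04 ± 0.10, Srsf9 at 0.78 ± 0.11, Tra2b at 0.71 ± 0.10, Hnrnpll at 0.69 ± 0.11, Hnrnph3 at 0.68 ± 0.14, Srsf5 at 0.62 ± 0.09 and Hnrnpu at 0.61 ± 0.09 (corrected log2 fold change and SE). Srsf9 was the only member called with and without the correction. The median over the family went from -0.21 to 0.15, with 23 members above 0 where 57.9% of all genes were, and the median over all genes went from -0.02 to 0.09. Across the 33 members Spearman's rho between the corrected log2 fold change and transcript GC content was -0.405, where it was 0.053 over all genes. Among these selected genes the corrected values thus ran lower as GC content rose, which is given as a description and supports no test. In 17 of the 33 members the sign differed between the fits. Of the members called higher only with the correction, Srsf5 was at -0.23 without it, Tra2b at -0.20, Hnrnpu at -0.16 and Hnrnpll at -0.10. Among members called in neither fit, the value turned from below to above 0 for Hnrnpd (-0.56 to 0.12), Srsf1 (-0.46 to 0.33), Hnrnpc (-0.41 to 0.15), Srsf6 (-0.28 to 0.28), Tra2a (-0.17 to 0.22) and Srsf11 (-0.11 to 0.27). These 6 have GC contents from 40.6% (Srsf1) to 45.0% (Srsf11).

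Of the 8 members called lower without the correction, 5 had a corrected log2 fold change above 0: Hnrnph1 at 0.50, Hnrnpa3 at 0.15, Hnrnph2 at 0.15, Hnrnpr at 0.12 and Srsf10 at 0.05. The other 3 stayed below 0, with Matr3 at -0.48 ± 0.11, Hnrnpa2b1 at -0.15 ± 0.11 and Srsf3 at -0.12 ± 0.09 (SE), and none of them passed the 1.5-fold threshold. With other GC measures the sign of 2 of these 3 turned, with Hnrnpa2b1 at 0.29 for the GC content of all exons and Srsf3 at 0.08 for that of the coding transcript. Members at the high end of GC content moved the other way. Hnrnpa0 went from 0.01 to -0.30, Hnrnpul1 from -0.13 to -0.39 and Hnrnpl, at 356 and 389 CPM in control TAMs and 414 and 394 CPM under propranolol, from 0.12 to -0.14.

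The corrected values depended on which transcript stood for the gene. The coding transcript of a gene is here the one with the longest coding sequence. With its GC content in place of that of the longest transcript of any kind, 3 members were called higher. These were Srsf7 at 1.31, Hnrnph3 at 0.73 and Hnrnpu at 0.69, and Srsf9, at 0.38, was no longer called. The share of all genes called is not given for this measure or for all exons, so nothing is read from these counts. With the GC content of all exons 6 were called higher, and Srsf9, at 0.44, Srsf5, at 0.48, and Hnrnph3, at 0.56, were not among them, while Srsf11, at 0.76, and Hnrnpm, at 0.67, were. Hnrnph1, whose coding transcript has 43.5% GC in place of 37.1%, went from 0.50 to -0.17, Hnrnpa3 from 0.15 to -0.28, and Srsf1, with 51.9% in place of 40.6%, from 0.33 to -0.57. Srsf7 and Hnrnpu were called with each of these 3 GC measures, and with that of all exons Srsf7 was at 1.15 and Hnrnpu at 0.74. The exons of Hnrnpu share 804 bases with Cox20 on the other strand. The counting options that the methods name hold no strand setting, so reads from the shared stretch cannot be told apart. Cox20 had 24 and 44 counts in control TAMs and 45 and 15 under propranolol. Hnrnpu had 10075 and 16455 in control TAMs and 22483 and 8804 under propranolol.

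**Figure D4:**
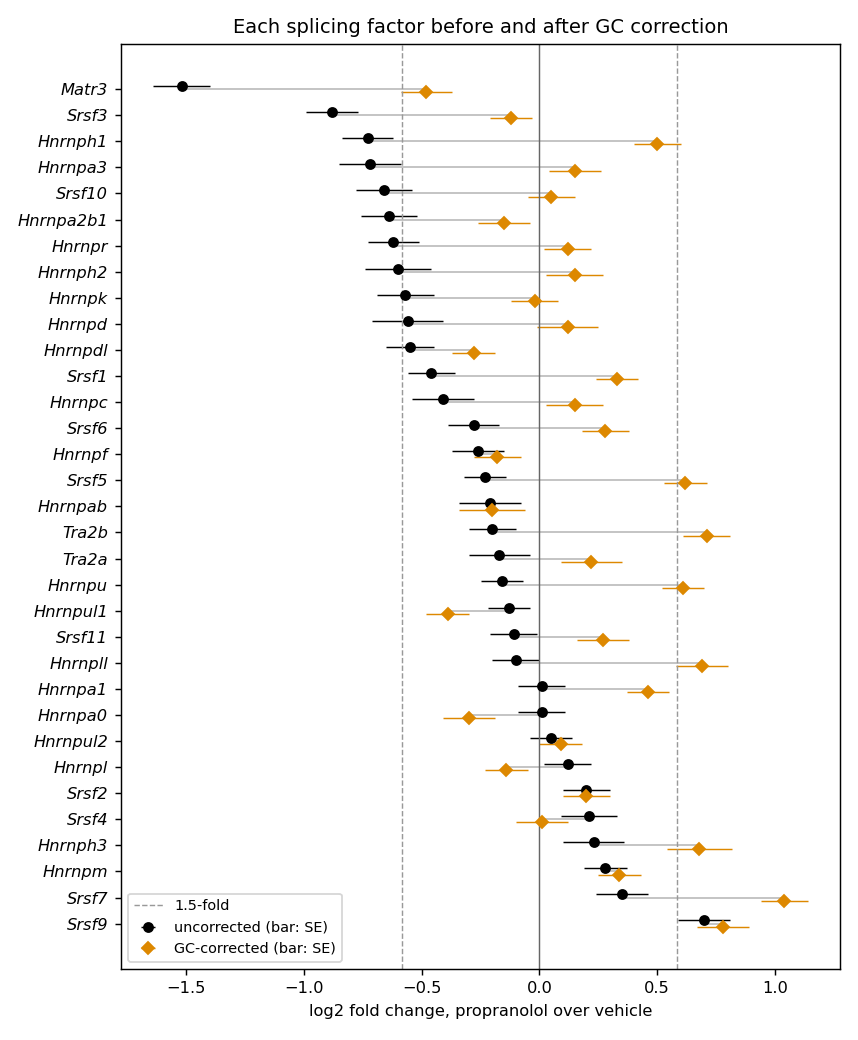
Log2 fold change of each of the 33 tested members before (black circles) and after (orange diamonds) the GC correction, with SE bars and dashed lines at 1.5-fold. Matr3 moves from -1.52 to -0.48 and Hnrnph1 crosses from -0.73 to 0.50, while Srsf9 hardly moves, from 0.70 to 0.78.

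The partners of these proteins were read from lists by function, with the same test. The core proteins of the spliceosomal snRNPs had 8 higher and 4 lower of 35 genes, with a median log2 fold change of 0.33. That is 34.3% of the list, where 27.8% of all genes were called. Snrpb, a protein of the Sm ring and the most abundant of the list, rose from 203 and 209 CPM in control TAMs to 348 and 332 CPM under propranolol, a log2 fold change of 0.72 ± 0.09 (SE, adjusted p = 0.00034). Lsm7 rose by 1.21 ± 0.20 (SE, adjusted p = 0.00121) and Snrnp25 by 1.04 ± 0.15 (SE, adjusted p = 0.000605), whereas Lsm5 changed by -1.54 ± 0.29 (SE, adjusted p = 0.00205) and Snrpb2 by -1.21 ± 0.20 (SE, adjusted p = 0.00104). Of these 5, the risen genes have 51.2% to 55.5% GC and the fallen genes 33.9% (Lsm5) and 39.3% (Snrpb2). After the GC correction 10 genes of the list were higher and 0 lower, where 12.6% of all genes were called.

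Of the 18 genes that recognise the branch point and 3′ splice site (U2AF, SF1 and SF3 subunits), 5 were higher and 0 lower, with a median of 0.36. That is 27.8% of the list, the same share as the 27.8% called over all genes. U2af2, the large U2AF subunit, which reads the polypyrimidine tract and was the most abundant of the list, rose from 196 and 209 CPM to 335 and 367 CPM, a log2 fold change of 0.79 ± 0.10 (SE, adjusted p = 0.00029). Sf3b5 rose by 0.85 ± 0.11 (SE, adjusted p = 0.000306), Phf5a by 0.66 ± 0.12 (SE, adjusted p = 0.00199) and Puf60 by 0.59 ± 0.10 (SE, adjusted p = 0.00125). After the GC correction, 2 of the list were higher (Sf3b5 and Phf5a) and 0 lower, and the median stayed at 0.36. Of all genes 12.6% were called with the correction, 7.64% higher and 4.99% lower.

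The kinases, phosphatases and importins that act on SR proteins had 1 higher and 4 lower of 15 genes. That is 33.3% of the list, where 27.8% of all genes were called. Srpk2, a cytoplasmic SR kinase, fell from 40.5 and 38.3 CPM to 22.7 and 20.9 CPM, a log2 fold change of -0.85 ± 0.13 (SE, adjusted p = 0.000708), and Ppp1cb by -1.14 ± 0.13 (SE, adjusted p = 0.000185). Clk3 rose by 0.61 ± 0.12 (SE, adjusted p = 0.00243) and Clk1, a nuclear SR kinase, was lower at -0.60 ± 0.13 (SE, adjusted p = 0.00463). After the GC correction, Clk1 was at 0.36 and Srpk2 at -0.04, and none of the list was called lower. Ppp1ca, the most abundant gene of the list, was not called, at a log2 fold change of 0.41.

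The other splicing regulators that bind RNA had 3 higher and 16 lower of 55 tested genes, with a median of -0.29. That is 34.5% of the tested genes of the list, where 27.8% of all genes were called. Pcbp1, a poly(C)-binding protein and the most abundant, rose from 329 and 315 CPM to 511 and 518 CPM, a log2 fold change of 0.67 ± 0.09 (SE, adjusted p = 0.00042), and Raly, a relative of hnRNP C, by 0.65 ± 0.10 (SE, adjusted p = 0.000738). Ptbp2 changed by -1.60 ± 0.22 (SE, adjusted p = 0.000455) and has 34.2% GC, and Rbm4 by -1.46 ± 0.51 (SE, adjusted p = 0.0412). After the GC correction Ptbp2 was at 0.02, and the list had 4 higher and 3 lower with a median of 0.08. The list of the exon junction complex and nonsense-mediated decay had 3 higher and 1 lower of 16 genes. That is 25% of the list, below the 27.8% called over all genes. Eif4a3, the helicase that anchors the junction complex, rose from 104 and 109 CPM to 211 and 189 CPM, a log2 fold change of 0.91 ± 0.10 (SE, adjusted p = 0.000196). Smg9 rose by 0.77 ± 0.12 (SE, adjusted p = 0.000723) and Upf1 by 0.74 ± 0.11 (SE, adjusted p = 0.000597), and Magohb changed by -1.27 ± 0.31 (SE, adjusted p = 0.00899). After the GC correction 2 genes of the list were higher and 0 lower, the median went from -0.15 to 0.02, and Magohb, at -0.66, was not called. With that correction 12.6% of all genes were called.

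Other gene families were read in the same way. Of 301 tested zinc finger genes of the Zfp series, which are also AT-rich at a median of 44.7% GC, 16 were higher and 76 lower with a median of -0.36, and after the GC correction 14 were higher and 5 lower with a median of 0.01. Of 38 proteasome genes 11 were higher and 1 lower with a median of 0.29. Of 80 cytosolic ribosomal protein genes 31 were higher and 5 lower with a median of 0.42. These calls made up 30.6% of the Zfp genes, 31.6% of the proteasome genes and 45% of the ribosomal protein genes. Over all genes the share called was 27.8%. With the GC correction 7 proteasome genes were higher and 0 lower with a median of 0.36, and 24 ribosomal protein genes were higher and 5 lower with a median of 0.37. Over all genes the share called with the correction was 12.6%. The splicing factors, at -0.21 before and 0.15 after the correction, lay between the Zfp genes and these families in both fits, and the difference from each was not tested.

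Markers of some other cell types moved with the groups, where 27.8% of all genes were called, 15.6% lower and 12.2% higher. Of 18 T and NK cell markers 17 were lower and 0 higher, and their sum went from 440 and 495 CPM in control TAMs to 212 and 115 CPM under propranolol, led by Nkg7. Of 13 fibroblast and sarcoma cell markers 10 were lower and 0 higher. Their sum was 3799 CPM in control library 1, 1460 in control library 2, and 847 and 886 under propranolol, led by Col1a1, so control library 1 stood apart. Of 11 tested neutrophil markers 8 were higher, and their sum went from 257 and 274 CPM to 542 and 584 CPM, led by S100a9. Of 8 monocyte markers 4 were higher and 0 lower, with sums of 969 and 875 CPM in control TAMs and 1138 and 989 CPM under propranolol. Of 5 tested B cell markers 2 were higher and 1 lower, of 8 dendritic cell markers 0 were higher and 3 lower, and of 6 tested endothelial markers 1 was higher and 0 lower. None of the markers on these lists was at 0 in all libraries. Without control library 1 the log2 fold change of Matr3 was -1.36, and the median was -0.17 over the splicing factors and 0.01 over all genes. The part of these cells in the values of the splicing factors was not tested.

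Of 20 proliferation genes, 5 were higher and 2 lower, which is 35% of the list, where 27.8% of all genes were called. Mcm5, a subunit of the replicative helicase, rose by 0.99 ± 0.10 (SE, adjusted p = 0.000125) and Mki67, the proliferation antigen Ki67, changed by -0.62 ± 0.10 (SE, adjusted p = 0.000891). After the GC correction 6 were higher and 0 lower, with a median of 0.38 in place of 0.21, and Mki67 was at -0.36 and not called. Near-identical copies could also touch the counts. Of the 34 members, 13 have at least 1 other annotated gene that matches 50% or more of their coding sequence at 95% identity or more, with 24 such copies for Hnrnpa3, 9 for Hnrnpa1 and 4 for Srsf3. The values of these members are less certain, since their reads may not be placed on 1 gene. Gene models that overlap a member at the same place were not left out of this search. Matr3 and Srsf4 have 1 match each, not a pseudogene, and both share exon bases with another model (Gm28285 and Gm12992).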

How the data were processed

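Libraries were poly-A selected from 400 ng of RNA with an integrity number above 7.5. Per the labels, the authors' processing notes name STAR 2.7.1a, SAMtools 1.9, featureCounts 1.6.4 and DESeq2 1.39.0 and the build mm10. The deposited values are raw counts per gene. Reads with a mapping quality above 30 were counted over GENCODE exons. The options named in the methods hold no strand setting, the featureCounts default for which is unstranded. The annotation release is not given in the sources used here, and 54079 of the 54146 gene IDs matched GENCODE M21. Reads from near-identical copies may have been lost at that filter.

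Counts were tested in R 4.3.3 with edgeR 4.0.16 (quasi-likelihood, TMM factors, filterByExpr with a minimum count of 10, Benjamini-Hochberg adjustment) over 14688 genes, with groups as the only term. This is the study's 2-group design, which used DESeq2 there. CPM use TMM-scaled totals, and TPM the union of exons. No column was left out (0 belonged to no sample). An exact permutation test of 2 against 2 libraries cannot go below p = 0.333, so no single-gene permutation test was run. The GC correction removed a natural spline (5 degrees of freedom) of each library's log2 CPM deviation on the GC content of the longest transcript through offsets. Copies were sought with BLAST 2.17.0.

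The members and the lists (spliceosome partners, regulators, cell type markers, proliferation genes and comparison families) were chosen with earlier results of these data known. Members named are those highest in level, fold change or GC content, or lowest in fold change or GC content, and those whose call or sign the GC correction changed. Of each partner list, the highest and lowest changed genes and the most abundant gene are named. The alternatives were DESeq2 1.42.0, other scaling factors, other filters and thresholds, each library left out, the replicate block and other GC measures. Those that used library totals, the GC content of all exons or of the coding transcript, and the left-out libraries within the GC correction, were chosen after seeing the data.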

Additional observations from a re-analysis of the deposited data

How the results depend on the processing

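Of all genes, 4084 were changed. The count was 1855 with the GC correction, 1849 with GC content and exon length corrected together, 728 (61 higher, 667 lower) at a log2 fold change above 1.5 and 6204 with no fold threshold, and leaving out each library gave 3615 to 4329. The other scaling factors, filters and DESeq2 kept it within 1.5 times. Of the 9 splicing factors called, 5 (1 higher, 4 lower) were left with no filter on low counts, 1 (Matr3) at a log2 fold change above 1.5, and 16 (3 higher, 13 lower) were called with no fold threshold. Leaving out each library gave 4 to 13: 4 without propranolol replicate 2, 6 without vehicle replicate 1, 11 without vehicle replicate 2 and 13 without propranolol replicate 1. Matr3, Srsf3, Hnrnph1 and Srsf9 were called in each of these 4 fits, where the lone library is assumed to vary like the other group. With the GC correction, 7 members were called, 3 with the GC content of the coding transcript, 6 with that of all exons and 7 to 8 without each library in turn, all higher.

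The replicate numbers are shared by the groups, but nothing says that a number marks a common source, and the deviations of same-numbered libraries from their group means correlated at 0.169 across genes. With the replicate block, 4362 genes and the same number of members, 9, were called. With the block and the GC correction together, 2133 genes and 7 members were called.

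Log2 fold changes above 0 for members called lower were found with the GC correction, with the replicate block added and with length added. They were 0.15, 0.15 and 0.13 for Hnrnpa3, 0.50, 0.50 and 0.47 for Hnrnph1, 0.15, 0.14 and 0.13 for Hnrnph2, 0.12, 0.12 and 0.24 for Hnrnpr, and 0.05, 0.05 and 0.03 for Srsf10. With the GC content of the coding transcript, Hnrnpa3 was at -0.28, Hnrnph1 at -0.17, Hnrnph2 at 0.23, Hnrnpr at 0.20 and Srsf10 at 0.00. The cause was not tested. The DESeq2 test called 8 members (1 higher, 7 lower), and upper-quartile factors 12 (1 higher, 11 lower). The tested members had at least 366 counts in each library, and Srsf12 had too few counts to be tested at these depths.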
